A study of Mus musculus with 6 samples.

Results

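The genes described here encode 8 precursors of forebrain neuropeptides: the opioid precursors Penk and Pdyn, the tachykinin precursors Tac1 and Tac2, the neurotensin precursor Nts, Cartpt, Vip and Cck. They were chosen by gene symbol, and every probe set that the array's annotation pairs with 1 of these symbols alone was taken. That gave 9 probe sets, 2 of them for Tac1 and 1 for each other gene, out of 34945 single-gene probe sets covering 18193 genes. RNA came from whole brains of C57BL/6 mice taken on postnatal day 6, after an intraperitoneal injection on postnatal day 2 of 1 mg testosterone propionate (TP, an esterified testosterone) dissolved in 20 µL sesame oil, or of that volume of oil only (vehicle). The 6 Affymetrix arrays comprised 2 of TP females, 1 of TP males, 2 of vehicle females and 1 of vehicle males, each from pooled RNA of 6 mice. In each treatment 1 of the female arrays is labelled as a replica, with no word on whether its mice were others, so p-values measure only the spread between these arrays, which may be technical.

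A neuropeptide is made as part of a longer precursor protein, which is sorted into dense-core granules, cut there by proteases into active peptides and released to act on G protein-coupled receptors of nearby cells. Enkephalins come from Penk and dynorphins from Pdyn. In the adult striatum Penk marks neurons of the indirect pathway, while Pdyn and Tac1 mark those of the direct pathway. Tac2 encodes neurokinin B, Vip and Cck mark classes of cortical interneurons, and Nts and Cartpt are prominent in the hypothalamus and the ventral forebrain. The precursor mRNA was measured here, not the peptides, and in RNA of a whole brain fewer cells of a type and less mRNA per cell cannot be told apart.

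The array labelled male TP stood apart from the others before any of the 8 genes was considered. On the brightest probe set of Xist, the RNA that coats the silenced X chromosome in females, it had 10.45 log2 units, against 5.29 on the male vehicle array, and the 4 female arrays lay between 12.61 and 12.83. Eif2s3y, a gene of the Y chromosome, had 9.12 on the male TP array and 9.16 on the male vehicle array, and between 2.84 and 3.09 on the female arrays. The pituitary hormone gene Gh had 8.55 on the male TP array, against 5.71 on the male vehicle array and 5.37 to 5.75 on the female arrays. The pituitary list of 8 measured genes, which includes Gh, averaged 5.04 on the male TP array and 4.39 to 4.59 on the other 5. In that list 6 genes were dim, and its prolactin gene, Prl, was at 3.41 to 3.99 throughout. A probe set is called dim where its mean lies below the 40th percentile of all probe sets, 5.49 log2 units. The part of this array's makeup in any result was not tested. TP against vehicle is therefore given over all 6 arrays and for the 4 female arrays alone. This holds for the 8 genes, the lists and most genes named from them. The female comparison is also what the comparison of both sexes becomes without the male TP array. For Drd1 and for receptors other than those with the smallest p only the 6-array value is given. The difference between the TP effects of the sexes rests on that array and could not be fitted without it. Male against female is given over all 6 arrays, and its fits with single arrays left out are described at the end. Among other tissue markers the 9 general neuronal genes averaged 12.00 to 12.08 and the 7 glial genes 9.08 to 9.17 on the 6 arrays, so the defining markers of brain were present. Array medians lay between 5.69 and 5.74, and the number of arrays limits the precision.

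**Figure D1:**
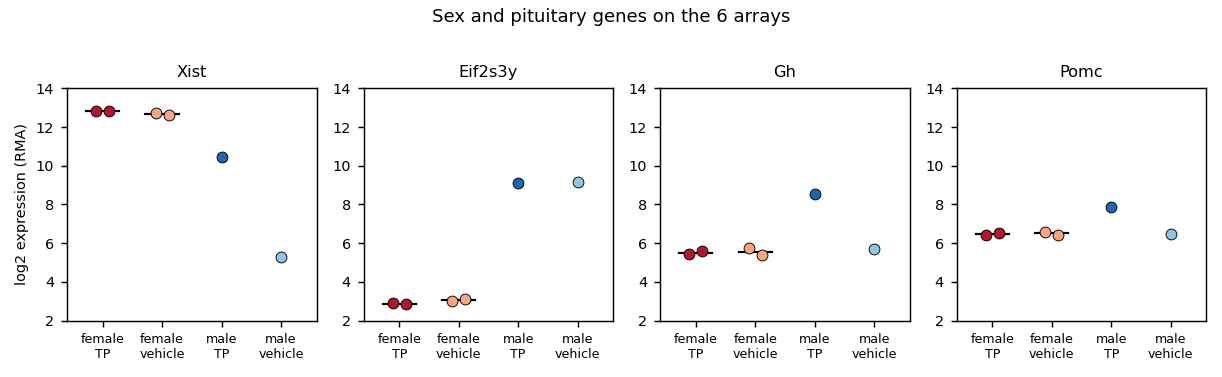
Each point is 1 array and each horizontal bar the mean of 2 female arrays. The vertical axis gives RMA log2 expression of Xist, Eif2s3y, Gh and Pomc for the female groups and then the male ones, TP left of vehicle in each sex. The male TP point lies at 10.45 for Xist and 8.55 for Gh, against 5.29 and 5.71 for male vehicle.

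The first question was whether TP altered the mRNA level of these precursors. None of the 9 probe sets passed the limma test (adjusted p under 0.05) in any comparison. In both sexes together, with sex as a term, 0 of the 9 passed, as did 0% of all 34945 probe sets, with a smallest adjusted p of 0.246 over all of them. In females 0 of the 9 passed, beside 0.00572% of all probe sets, which is 2 of them. An unadjusted p under 0.05 was found for 1 of the 9 (Pdyn) in both sexes, against 12.3% of all, and for 0 of the 9 in females, against 7.83%. The 95% intervals of the 9 probe sets bound the ratio of TP to vehicle between 0.755 and 1.22 in both sexes and between 0.718 and 1.24 in females. The median absolute log2 difference was 0.08 for the 9 and 0.07 for all probe sets. The signed log2 difference was positive for 3 and negative for 6, with a median of −0.07 over the 9 probe sets and −0.02 over all of them.

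**Figure D2:**
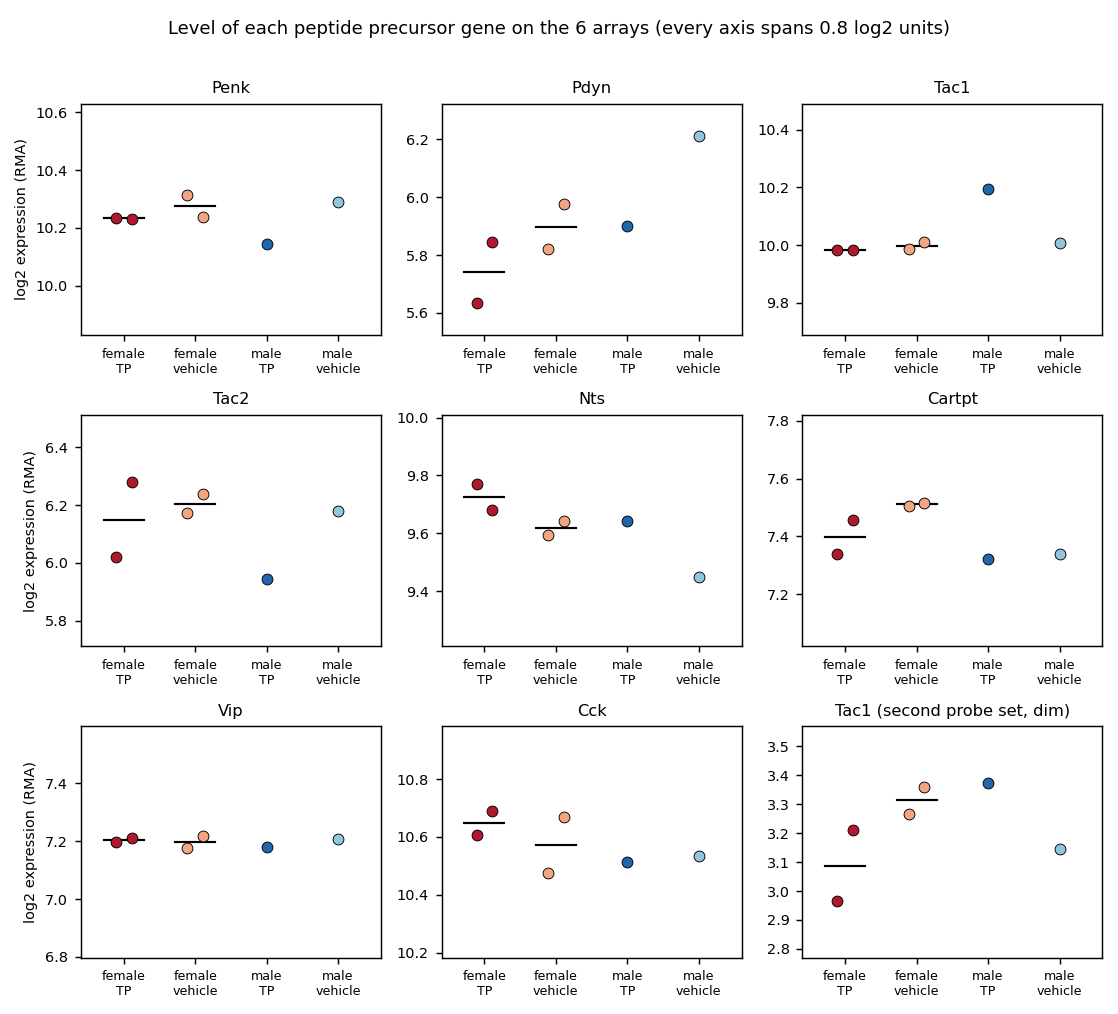
Each panel is 1 probe set, each point 1 array and each bar the mean of 2 female arrays, on RMA log2 axes that all span 0.8 units. Vip stayed within 0.04 units over the 6 arrays, whereas Pdyn spanned 0.58.

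Pdyn, the dynorphin precursor, had the lowest log2 difference of the 9 probe sets in both sexes. Its base sequence before the start of transcription is printed because Pdyn alone of the 8 genes had a p under 0.05 before adjustment for TP against vehicle in both sexes. It is the 250 bases upstream of the RefSeq start at the 5′ end of the gene, mouse assembly GRCm38.p6, chr2:129699939-129700188, minus strand. It held no match to any of the motifs listed further on, so all its letters are lower case.
Pdyn upstream of the start: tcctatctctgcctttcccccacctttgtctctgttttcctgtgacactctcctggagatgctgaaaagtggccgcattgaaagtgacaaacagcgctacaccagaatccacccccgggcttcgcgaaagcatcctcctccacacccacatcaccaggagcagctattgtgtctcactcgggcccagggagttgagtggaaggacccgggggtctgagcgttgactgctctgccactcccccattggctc

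Pdyn (1416266_at) had 5.63 and 5.84 log2 units on the female TP arrays and 5.90 on the male TP array, against 5.82 and 5.98 on the female vehicle arrays and 6.21 on the male vehicle array. The male vehicle array was the highest and a female TP array the lowest, and the TP and vehicle arrays overlapped in females as well as over all 6. In both sexes the log2 difference was −0.21 (SE 0.08, 95% interval −0.40 to −0.02), a ratio of 0.865, with an unadjusted p of 0.0378 and an adjusted p of 0.391 by limma. In females alone it was −0.16 (SE 0.10, limma adjusted p = 0.746), and the single male arrays differed by −0.31. The level lay at percentile 45.2 of all probe sets, above the dim range.

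Penk, the enkephalin precursor, had a mean level at percentile 93.2 of all probe sets. Penk (1427038_at) had 10.234 and 10.231 log2 units on the female TP arrays and 10.144 on the male TP array, against 10.315 and 10.237 on the female vehicle arrays and 10.288 on the male vehicle array. All 3 TP arrays lay below all 3 vehicle arrays, but the nearest values of the groups were only 0.003 apart. TP minus vehicle was −0.08 log2 units in both sexes (SE 0.06, 95% interval −0.22 to 0.07, limma adjusted p = 0.639) and −0.04 in females (limma adjusted p = 0.923). The male arrays differed by −0.14. Penk and Nts were the 2 of the 9 probe sets whose TP and vehicle arrays did not overlap: 1 was lower with TP, as were 9.12% of all probe sets, and 1 higher, as were 6.01%. Over the 4 female arrays alone 4 of the 9 were lower without overlap, against 22.5% of all probe sets, and 1 was higher, against 16%.

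Of the tachykinin precursors, Tac1 gives substance P and neurokinin A. Tac1 (1416783_at) had 9.98 log2 units on each female TP array and 10.20 on the male TP array, against 9.99 and 10.01 on the female vehicle arrays and 10.01 on the male vehicle array. The male TP array alone stood above the other 5, which lay between 9.98 and 10.01. The log2 difference was 0.05 in both sexes (SE 0.07, limma adjusted p = 0.781) and −0.01 in females (SE 0.07, limma adjusted p = 0.977), so its sign rests on the male TP array, where the difference from male vehicle was 0.19. The other Tac1 probe set (1431883_at) was dim, at percentile 8.88. It had 2.96 and 3.21 on the female TP arrays and 3.37 on the male TP array, against 3.27 and 3.36 on the female vehicle arrays and 3.14 on the male vehicle array. Its log2 difference was −0.07 in both sexes (SE 0.11, limma adjusted p = 0.823), −0.23 in females (SE 0.11, limma adjusted p = 0.661) and 0.23 between the male arrays. Over all 6 arrays the 2 probe sets had opposite signs, and within each sex they had the same sign.

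Tac2, the neurokinin B precursor, had a larger spread in females than its group difference. Tac2 (1419411_at) had 6.02 and 6.28 log2 units on the female TP arrays and 5.94 on the male TP array, against 6.17 and 6.24 on the female vehicle arrays and 6.18 on the male vehicle array. The female TP arrays held both the highest female value and the lowest, and the male TP array was the lowest of the 6. The log2 difference was −0.12 in both sexes (SE 0.09, 95% interval −0.31 to 0.08, limma adjusted p = 0.612), −0.06 in females (limma adjusted p = 0.929) and −0.24 between the male arrays.

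Nts, the neurotensin precursor, had the highest positive log2 difference of the 9 in both sexes. Its upstream bases (GRCm38.p6, chr10:102490419-102490668, minus strand) are printed because its TP arrays lay above its vehicle arrays; the capitals mark a CGTCA, the short form of the cyclic AMP response element (CRE).
Nts upstream of the start: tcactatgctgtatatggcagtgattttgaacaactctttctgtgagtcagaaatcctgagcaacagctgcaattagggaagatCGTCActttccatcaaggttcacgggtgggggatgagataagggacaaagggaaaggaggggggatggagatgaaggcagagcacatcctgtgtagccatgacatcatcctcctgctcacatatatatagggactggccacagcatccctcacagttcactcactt

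Nts (1422860_at) had 9.77 and 9.68 log2 units on the female TP arrays and 9.643 on the male TP array, against 9.59 and 9.642 on the female vehicle arrays and 9.45 on the male vehicle array. All 3 TP values lay above all 3 vehicle values, with 0.00078 units between the nearest of them, and the male vehicle array was the lowest. TP minus vehicle was 0.14 log2 units in both sexes (SE 0.06, 95% interval −0.01 to 0.28), a ratio of 1.10, with an unadjusted p of 0.0627 and an adjusted p of 0.429 by limma. It was 0.11 in females (SE 0.08, limma adjusted p = 0.777) and 0.19 between the male arrays.

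Cartpt encodes the precursor of the CART peptides, which reduce feeding when given into the brain. Of the 7 genes with an upstream window it was the only one whose window held a full CRE. Its bases (GRCm38.p6, chr13:99900684-99900933, minus strand) are printed for that reason, with the CRE in capitals. The annotated gene spans chr13:99898483-99910179, so the start used for this window lies inside it.
Cartpt upstream of the start: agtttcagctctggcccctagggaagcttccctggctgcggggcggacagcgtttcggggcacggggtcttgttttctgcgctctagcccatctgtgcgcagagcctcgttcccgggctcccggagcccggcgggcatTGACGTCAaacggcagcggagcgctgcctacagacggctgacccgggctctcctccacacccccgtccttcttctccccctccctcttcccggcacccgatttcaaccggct

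Cartpt (1422825_at) had 7.34 and 7.46 log2 units on the female TP arrays and 7.32 on the male TP array, against 7.51 and 7.52 on the female vehicle arrays and 7.34 on the male vehicle array. Both female TP arrays lay below both female vehicle arrays, and the male arrays were close to each other at the low end. The log2 difference was −0.08 in both sexes (SE 0.06, limma adjusted p = 0.632), −0.11 in females (SE 0.08, limma adjusted p = 0.767) and −0.02 between the male arrays.

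Vip, the precursor of vasoactive intestinal peptide, varied least of the 9 over the arrays. Vip (1428664_at) had 7.20 and 7.21 log2 units on the female TP arrays and 7.18 on the male TP array, against 7.18 and 7.22 on the female vehicle arrays and 7.21 on the male vehicle array. No array stood out, and its range over the 6 was 0.04. The log2 difference was −0.0046 in both sexes (SE 0.06, 95% interval −0.14 to 0.13, limma adjusted p = 0.982), with the opposite sign when the arrays were quantile-normalized again or centred on their medians, and 0.01 in females.

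Cck, the cholecystokinin precursor, was at the highest percentile of the 8 genes, 94.9. Cck (1419473_a_at) had 10.61 and 10.69 log2 units on the female TP arrays and 10.52 on the male TP array, against 10.48 and 10.67 on the female vehicle arrays and 10.53 on the male vehicle array. The spread between the female vehicle arrays took in 3 of the other 4 arrays, with a female TP array above it. TP minus vehicle was 0.04 log2 units in both sexes (SE 0.07, limma adjusted p = 0.841), 0.08 in females (SE 0.10, limma adjusted p = 0.881) and −0.02 between the male arrays.

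**Figure D3:**
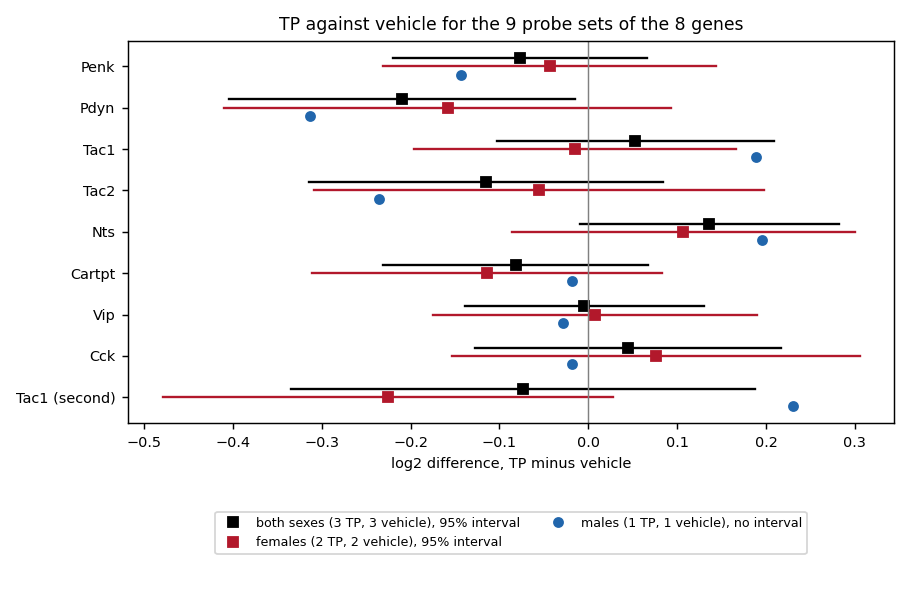
Squares give the log2 difference of TP minus vehicle for each probe set in both sexes (black) and in females (red) with 95% intervals from limma, and blue circles the difference between the single male arrays. For Pdyn alone the interval in both sexes lies to one side of 0, at −0.40 to −0.02 before adjustment.

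The difference between the TP effects of the sexes was tested in a model of 4 groups, in which the single male arrays are assumed to vary like the female ones. None of the 9 probe sets passed, each with an adjusted p of 1.00 by limma, beside 0.02% of all probe sets, which were 6 of Gh or Xist and 1 of Ibsp. By unadjusted p under 0.05, 1 of the 9, the dim Tac1 probe set, was below (log2 difference of differences −0.46, unadjusted p = 0.0438, limma), against 4.84% of all. That p takes its spread from the female arrays and rests on the male TP array, and the brighter Tac1 probe set had −0.20 (SE 0.13).

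Male was compared with female in the same additive model, with treatment as a term. Here too 0 of the 9 passed, beside 0.0114% of all probe sets, which were 4 probe sets of the Y-linked genes Eif2s3y, Kdm5d and Uty. Pdyn was the only one of the 9 with an unadjusted p under 0.05, where 12.5% of all probe sets lay: its log2 difference of male minus female was 0.24 (SE 0.09, unadjusted p = 0.0295, limma adjusted p = 0.357). The other values were 0.11 and 0.06 for the Tac1 probe sets, −0.13 for Nts, −0.12 for Cartpt and for Tac2, −0.09 for Cck, −0.04 for Penk and −0.01 for Vip. Both Penk and Vip changed sign when the arrays were quantile-normalized again.

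The order of the 4 group means differed from gene to gene. A gap between neighbours is called within the spread where it is no larger than the difference between the 2 arrays of the more variable female group. For Tac2, Cartpt, Vip, Cck and the dim Tac1 probe set no neighbouring groups were further apart than that. Penk was lowest in male TP (10.14), then female TP (10.23), female vehicle (10.28) and male vehicle (10.29), and only the gap between male TP and female TP exceeded the spread of 0.08. Pdyn was lowest in female TP (5.74), then female vehicle (5.90), male TP (5.90) and male vehicle (6.21), and only the gap between male TP and male vehicle exceeded the spread of 0.21. For the brighter Tac1 probe set the gap between male TP (10.20) and male vehicle (10.01) was the one outside, and for Nts that between male vehicle (9.45) and female vehicle (9.62).

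The 14 receptor genes looked for, none of them for the CART peptides, were all measured. By limma 0 of the 14 passed in either direction in any of the 4 comparisons. In both sexes 0 of them had an unadjusted p under 0.05, where 12.3% of all probe sets lay. There 8 had a positive and 6 a negative log2 difference, with a median of 0.02, against −0.03 over all genes, and in females 7 and 7, with a median of −0.02, against −0.02. Dim probe sets made up 7 of the 14. The opioid receptors had log2 differences of −0.13 for Oprm1 (mu, dim), 0.05 for Oprd1 (delta, dim), 0.02 for Oprk1, the dynorphin receptor, and 0.02 for Oprl1, the nociceptin receptor. The tachykinin receptors had −0.03 for Tacr1 (dim), 0.12 for Tacr2 (dim) and 0.05 for Tacr3, which binds neurokinin B. The smallest receptor p belonged to Ntsr2, a neurotensin receptor of astrocytes. Ntsr2 had 8.38 and 8.39 log2 units on the female TP arrays and 8.29 on the male TP array, against 8.45 and 8.51 on the female vehicle arrays and 8.46 on the male vehicle array. Its TP arrays all lay below its vehicle arrays, as did 9.12% of all probe sets, with a log2 difference of −0.12 (SE 0.06, limma adjusted p = 0.449) and −0.10 in females. Ntsr1 had −0.09, and Sort1, the sortilin gene whose product also binds neurotensin, had −0.04. Vipr2 had 0.16 (0.10 in females, limma adjusted p = 0.456 in both sexes, dim), Vipr1 0.08 (dim), Cckbr −0.06 and Cckar 0.01 (dim).

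Of the 9 related precursors, such as Pomc of the other opioids and Pnoc of nociceptin, 0 passed by limma. An unadjusted p under 0.05 was found for 1 of these precursors, a share near the 12.3% of all probe sets. Their log2 difference in both sexes was positive for 2 and negative for 7, with a median of −0.11, and in females positive for 1 and negative for 8, with a median of −0.09. Sct, the secretin gene, had the smallest p. Sct had 6.00 and 5.98 log2 units on the female TP arrays and 5.90 on the male TP array, against 6.17 and 6.06 on the female vehicle arrays and 6.20 on the male vehicle array. All TP arrays of Sct lay below all its vehicle arrays, as did those of 9.12% of all probe sets. The log2 difference was −0.19 (SE 0.07, limma adjusted p = 0.364) and −0.13 in females. Tac4, of the third tachykinin precursor, had −0.16 (dim, limma adjusted p = 0.50) and −0.28 in females. Pomc had 6.45 and 6.53 on the female TP arrays and 7.86 on the male TP array, against 6.57 and 6.45 on the female vehicle arrays and 6.46 on the male vehicle array. As with Gh, the male TP array alone was high, so the log2 difference of 0.45 in both sexes (limma adjusted p = 0.50) became −0.02 in females. Another Pomc probe set had 0.73 and, in females, 0.10.

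Enzymes that cut and finish the precursors were measured for 10 of 11 genes. By limma 0 of the 10 passed and 2 had an unadjusted p under 0.05, against 12.3% of all probe sets. Their log2 differences were positive for 5 and negative for 5, with a median of −0.0015, and in females 5 and 5, with a median of 0.0007. Cpe, the carboxypeptidase that trims basic residues from the cut peptides, had 13.46 and 13.42 log2 units on the female TP arrays and 13.63 on the male TP array, against 13.21 and 13.40 on the female vehicle arrays and 13.22 on the male vehicle array. Its TP arrays lay just above the vehicle arrays, as did those of 6.01% of all probe sets, with a log2 difference of 0.23 (SE 0.08, limma adjusted p = 0.375) in both sexes and 0.14 in females. A second Cpe probe set, dim, had 0.47 (limma adjusted p = 0.246), equal to the smallest of all 34945 probe sets in that comparison. In females this probe set had 0.39. Pcsk1, a prohormone convertase, had −0.22 (dim, limma adjusted p = 0.397) and −0.27 in females. Its TP arrays lay below its vehicle arrays, as did those of 9.12% of all probe sets.

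The granule proteins (7 measured, median −0.03) and the peptidases that end peptide action (10 measured, median −0.02) likewise held 0 that passed by limma. At an unadjusted p under 0.05 there were 0 and 1 of them, against 12.3% of all probe sets. In females the medians were −0.03 and 0.0046. In the granule list 3 genes had positive and 4 negative log2 differences, led by Cadps, a priming factor of dense-core granules, with 0.11 (0.15 in females), and Vgf, a granule protein, with 0.09 (0.15 in females). In the peptidase list the counts were 3 and 7. Thop1, which cleaves neurotensin and short opioid peptides, had 7.43 and 7.50 log2 units on the female TP arrays and 7.53 on the male TP array, against 7.90 and 7.66 on the female vehicle arrays and 7.63 on the male vehicle array. Its TP arrays lay below its vehicle arrays, as did those of 9.12% of all probe sets. The log2 difference was −0.24 (SE 0.09, limma adjusted p = 0.360) and −0.32 in females. A second Thop1 probe set, dim, overlapped and had −0.01 (limma adjusted p = 0.973) and 0.0033 in females. Tpp2, a tripeptidyl peptidase, had 0.10 and 0.12 in females. Its other probe sets had 0.06 to 0.23 in both sexes and 0.02 to 0.32 in females.

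Markers of the cells and regions that make these peptides were set beside the precursors. Of 14 striatal genes 5 had positive and 9 negative log2 differences (median −0.02, and −0.03 in females), and 0 passed by limma. An unadjusted p under 0.05 was found for 2 of them, a share near the 12.3% of all probe sets. Drd2, the dopamine receptor of the neurons that make enkephalin, had 6.01 and 6.28 log2 units on the female TP arrays and 6.16 on the male TP array, against 6.45 and 6.54 on the female vehicle arrays and 6.34 on the male vehicle array. Its TP arrays lay below its vehicle arrays (log2 difference −0.29, SE 0.09, limma adjusted p = 0.325, and −0.35 in females), as did those of 9.12% of all probe sets, and Penk, made in the same neurons, had −0.08. Drd1, of the neurons that make dynorphin and substance P, had −0.02. Pde10a, a phosphodiesterase of both classes, had 0.31 (limma adjusted p = 0.365) and 0.20 in females. Its 4 other probe sets had negative values, −0.19 to −0.07 in both sexes and −0.22 to −0.01 in females.

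Of 10 interneuron genes 5 were positive and 5 negative (median −0.01, and −0.02 in females). The smallest p-values were those of Cnr1, the cannabinoid receptor of Cck interneurons, with a log2 difference of 0.14 (limma adjusted p = 0.431; 0.14 in females), and of Sst, the somatostatin gene, with −0.10 (limma adjusted p = 0.532; −0.08 in females). The 6 genes of cortical excitatory neurons had a median of 0.08 (0.11 in females), with 4 positive and 2 negative, led by Neurod6, a transcription factor of those neurons, with 0.32 (limma adjusted p = 0.335) and 0.23 in females, and Fezf2, of deep-layer neurons, with 0.15 and 0.14 in females.

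The 13 hypothalamic genes had a median log2 difference of −0.03, with 5 positive and 8 negative, and in females −0.04, with 3 and 10. Gal, the galanin precursor, had 7.35 and 7.39 log2 units on the female TP arrays and 7.39 on the male TP array, against 7.62 and 7.67 on the female vehicle arrays and 7.53 on the male vehicle array. All TP arrays of Gal were below all vehicle arrays by at least 0.14, and 9.12% of all probe sets likewise had TP lower without overlap. The log2 difference of Gal was −0.23 (SE 0.06, limma adjusted p = 0.309) and −0.27 in females. Nkx2-1, a transcription factor of the ventral forebrain, had 0.22 (limma adjusted p = 0.309, dim) and 0.26 in females. None of the interneuron, cortical or hypothalamic genes passed by limma, and 0, 1 and 2 of them had an unadjusted p under 0.05, against 12.3% of all probe sets.

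Markers of the hindbrain and spinal cord, where these precursors are also made, had the median furthest from 0 of the lists described here. Dim probe sets made up 9 of the 16 measured. By limma 0 of the 16 genes passed, and 10 had an unadjusted p under 0.05, against 12.3% of all probe sets. Their log2 difference in both sexes was negative for 15 and positive for 1, with a median of −0.24, and −0.20 in females. The mean level of the 16 was 5.55 and 5.64 on the female TP arrays and 5.39 on the male TP array, against 5.75 and 5.82 on the female vehicle arrays and 5.71 on the male vehicle array. All TP arrays were below all vehicle arrays in this mean. Hoxb5, a homeobox gene of the caudal neural tube, had −0.51 (limma adjusted p = 0.289) and −0.39 in females. Slc6a5, the glycine transporter, had −0.41 (limma adjusted p = 0.290) and −0.38 in females, while its dim second probe set had 0.14 in both sexes and −0.01 in females. In the same comparison Penk, Pdyn, Tac2, Cartpt, the dim Tac1 probe set and, at −0.0046, Vip had negative values. Nts (0.14), the brighter Tac1 probe set (0.05) and Cck (0.04) had positive values. The part of such caudal tissue in those values was not tested. For the pituitary list the log2 difference was positive for 4 of 8 and negative for 4 (median 0.05), for the general neuronal genes positive for 3 of 9 and negative for 6 (median −0.04), and for the glial genes positive for 2 of 7 and negative for 5 (median −0.02). By limma 0 of these passed, with 0, 0 and 1 at an unadjusted p under 0.05, against 12.3% of all probe sets. In females the 3 medians were −0.05, −0.02 and −0.0024. Tbx19, a transcription factor of corticotropes, had 0.14 (dim) and a second, also dim, probe set −0.07. Nefm, a neurofilament gene, had −0.11 and Map2, a gene of dendrites, 0.09. Gfap, the intermediate filament gene of astrocytes, had −0.24, and Mbp, the myelin basic protein gene, −0.08. In females these values were 0.12 and −0.05 for Tbx19, −0.10 for Nefm, 0.06 for Map2, −0.30 for Gfap and −0.0024 for Mbp. Further probe sets of Map2 had 0.03 to 0.38 in both sexes and 0.17 to 0.49 in females. Those of Mbp had −0.13 to 0.06 in both sexes and −0.02 to 0.15 in females. Those of Gfap had −0.18 and −0.17 in both sexes and −0.12 and −0.10 in females.

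**Figure D4:**
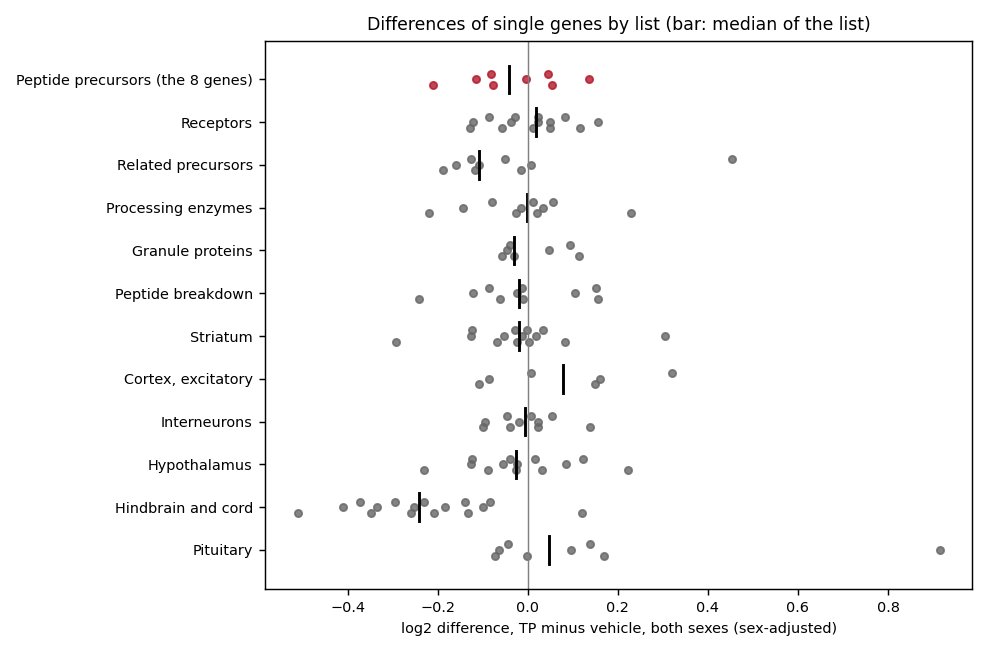
Each point is the log2 difference of TP minus vehicle of 1 gene in both sexes, adjusted for sex, on its brightest probe set, and each bar the median of its list, in a row per list. The 8 peptide precursors (red) had a median of −0.04 and the hindbrain and cord genes one of −0.24, while no gene of any list drawn passed the test.

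For each of the 8 genes the genes with the most similar course over the 6 arrays were found by Pearson's r among 12257 genes that were not dim. With 6 arrays and so many candidates a high r is found for any gene, and the values are a description of these arrays only. Penk was closest to Cdan1 (r = 0.994) and the homeobox gene Hoxc4 (0.993), Pdyn to Cgnl1 (0.990) and Nxf1 (0.987), and Tac1 to Klhl9 (0.995) and Tmem30a (0.988). Tac2 was closest to Acvr1b (0.995) and Gm19345 (0.993), and Nts to Cttnbp2 (0.997) and Rab40b (0.986). Cartpt followed Dera (0.999) and Pex13 (0.998), Vip followed Ap3d1 (0.985) and Tmem45a (0.981), and Cck followed Kpna3 (0.997) and Gpr161 (0.995).

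Upstream windows of 250 bases were found for 7 of the 8 genes, all but Penk, in 8 windows because Pdyn has 2 starts. The windows whose letters are not printed lie at chr2:129698659-129698908 on the minus strand (the other of Pdyn), chr6:7554811-7555060 on the plus strand (Tac1), chr10:127724228-127724477 on the plus strand (Tac2), chr10:5638968-5639217 on the plus strand (Vip) and chr9:121495695-121495944 on the minus strand (Cck). Both strands were searched for letters that bear on the treatment or on neuropeptide genes. The CRE, TGACGTCA, is bound by CREB, and it stood in 1 of the 8 windows, that of Cartpt, 112 bases before the start, and in 1.55% of all 32851 mouse windows. Its short form CGTCA, which each CRE contains, stood in 5 of the 8 (Tac1, Nts, Cartpt, Vip and Cck) and in 17.8% of all. The palindromic androgen response element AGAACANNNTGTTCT stood in 0 of the 8 and 0.00913% of all windows, and its short form AGAACA in 0 and 16.1%. The estrogen response element GGTCANNNTGACC, relevant because brain aromatase turns testosterone into estradiol, stood in 0 and 0.0639%, and its short form GGTCA in 1, that of Cartpt, and 35.2%. These are matches of letters, which show neither binding nor its absence.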

How the data were processed

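Affymetrix arrays were read as deposited: the authors had turned the scans into log2 expression values with RMA, per the submitters' processing notes; RMA subtracts background, equalizes the arrays and combines the probes of a set, and its version was not given in the sources used here. Of 45101 probe sets, 34945 were paired with 1 gene symbol by the platform annotation and were all tested, 932 named several genes and 64 were controls. No pair of arrays had more than 215 values that were identical in every deposited digit, so none was taken for a duplicate.

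Differences were fitted in R 4.3.3 by lmFit and eBayes of limma 3.58.1, without an intensity trend; tests were two-sided and p-values adjusted by Benjamini-Hochberg across the 34945 probe sets. The models were treatment plus sex over 6 arrays, treatment over 4 female arrays, and 4 groups over 6 arrays for the difference between sexes. Male TP against male vehicle, 1 array each, has values only. The script was tested on simulated data. A gene in a list is shown by its brightest probe set, and of 151 list entries 137 were measured. Named from each list were the receptors, the 2 genes with the smallest unadjusted p in both sexes and any that passed; further probe sets of named genes, Pomc, Drd1 and Prl were named after their values were seen. The 8 genes, the lists and the tests were chosen with earlier results of these data known.

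Upstream sequences are from RefSeq, GRCm38.p6. Alternatives were other probe set choices, leaving out dim probe sets, further scaling, an intensity trend, a replicate block, a fold rule and leaving out each array. Plots used matplotlib 3.10.9 and pandas 2.3.3 under Python 3.11.15.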

Additional observations from a re-analysis of the deposited data

Results flagged for a closer look

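None of the 9 peptide probe sets met a rule for a closer look. Probe sets of Xist and Gh passed the limma test for a TP effect that is unequal in females and males, each through a high value on the male TP array. For Xist the females' log2 difference minus the males' was −5.00 (1436936_s_at), −5.68 (1427262_at) and −4.22 (1427263_at). For Gh it was −4.90 (1460613_x_at), −5.30 (1437522_x_at) and −5.17 (1456595_x_at).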

How the results depend on the processing

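Counts of probe sets past the threshold were small and moved with the settings. In both sexes the count was 0, and 38 with an intensity trend; leaving out each array gave 0 to 2, the 2 coming without either male array, and 20 probe sets, 0 of them of the 8 genes, differed by 1.5-fold without overlap. In females it was 2, and 5 with 1 probe set per gene, 1 without dim probe sets, 6 after quantile normalization or centring, 16 with the trend and 0 to 0 when any array was left out. For the difference between the sexes it was 7, and 2 with 1 probe set per gene or their mean and 12 with the trend. For male against female it was 4, and 0 without dim probe sets, 37 with the trend and 3 to 14 without an array, 14 without the male vehicle array. With the original or replica array as a replicate block the counts were 0 in both sexes, 2 in females and 2 for male against female. Deviations of same-numbered female arrays correlated at 0.111 across probe sets, from 2 pairs, so the numbers are not shown to pair the arrays. The peptide probe sets gave 420 values under alternatives, of which 0 passed (smallest adjusted p 0.228) and 24 changed sign. In both sexes Tac1 became −0.0105 as a mean of its probe sets, and Vip 0.0058 after quantile normalization and 0.024 after centring. In females Tac1 became 0.0086 after centring. For male against female Penk became 0.0037 after quantile normalization, and Vip 0.0362 after it, 0.0174 after centring and 0.0067 with the replicate block. Leaving out arrays took the both-sexes difference of Tac1 (dim probe set) over −0.226 to 0.0401, Cck over −0.0199 to 0.0906, Tac1 over −0.0149 to 0.0782 and Vip over −0.0196 to 0.0076. With no change of sign it took Pdyn over −0.285 to −0.158 and Penk over −0.109 to −0.0436. In females it took Pdyn over −0.263 to −0.0533, the ends being without either female TP array, Penk over −0.0827 to −0.0045, Tac2 over −0.184 to 0.0729, Vip over −0.0127 to 0.0279 and Cck over −0.0206 to 0.173. The difference between the sexes for Cck ranged from −0.00174 to 0.192. Male minus female ranged Tac1 (dim probe set) over −0.17 to 0.286, Penk over −0.0885 to 0.0117 and Vip over −0.0255 to 0.011. The difference between the sexes could not be fitted without a male array, and the causes of these shifts were not tested. Where leaving out an array left 1 in a group, that array was assumed to vary like the others. The width of the 95% intervals is what 6 arrays allow.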
